A study of Mus musculus with 2 samples.

Results

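Interleukin-1β and the ligands of Toll-like receptors are sensed by receptors that end in the same cytoplasmic Toll/IL-1 receptor domain. This domain recruits the adaptor MyD88, which assembles the kinases IRAK4 and IRAK1, and these engage the ubiquitin ligase TRAF6, upstream of NF-κB and of the MAP kinases, p38α among them. Hematopoietic stem cells (HSCs) carry receptors of both families, and the pathway is known for driving HSC division and myeloid output under inflammatory stress. Here the 10 genes of its core were followed in old long-term HSCs (LT-HSCs): the ligand *Il1b*, the receptor chains *Il1r1* and *Il1rap*, the antagonist *Il1rn*, the Toll-like receptors *Tlr2* and *Tlr4*, and the shared *Myd88*, *Irak4*, *Irak1* and *Traf6*. They were chosen by name. Every non-control probe that carried one of these gene names was taken, which gave 18 of 55681 distinct probes, for 10 of 22555 named genes.

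The cells came from 2 groups of C57BL/6J mice aged 2 years, each hybridized on 1 single-colour array. In the *p38α*Δ/Δ mice, tamoxifen (TAM) given at about 1 year of age activated CAG-CreERT2 and so deleted floxed *p38α* (*Mapk14*). The *p38α*+/+ controls were of the same age, carried the floxed allele without Cre and were also injected with TAM. CAG is a ubiquitous promoter, so the deletion was not limited to HSCs. The sample labels give the sorted cells as CD150+CD48-Flt3-CD34- LSK, the methods add CD41-, and the series' design text names CD34- and Flt3- within lineage-, Sca-1+ and c-Kit+ cells. The number and sex of the mice behind each array are not given in the sources used here. With 1 array per genotype there was no replicate and no test, and no spread between mice can be given. All directions below rest on the labels.

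The targeted gene did not separate the arrays. Both *Mapk14* probes differed by less than 0.09, the SD of a difference between single spots at their level, with levels of 2.34 and 2.31 at A_55_P2046338 and of 2.08 and 2.03 at A_55_P2179348 (*p38α*+/+ first). Which part of the gene is deleted is not given in the sources used here, and a probe outside that part would check nothing. The paper reports genomic PCR of peripheral blood from such mice, in which *p38α* was reduced but not absent. The array of the *p38α*Δ/Δ mice, whose label reads p38KO, is therefore called the p38KO-labelled array. A level here is the log2 of the scanner's processed signal minus the 75th percentile of that array, so 0 stands for a fairly bright probe. A difference is the level on the p38KO-labelled array minus that on the *p38α*+/+ array. Levels of different probes cannot be compared with each other, since probes differ in how well they hybridize. Probes well above background made up 67.9% of all probes on the *p38α*+/+ array and 69.0% on the other, and 0 spots were saturated. Of 17194 genes measured, 17182 had a difference, and their median was -0.03, with quartiles of -0.38 and 0.33.

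LT-HSC identity was checked with 14 HSC markers, and all 14 cleared background on both arrays. Of these, 13 were lower on the p38KO-labelled array, as were 8992 of the 17182 genes with a difference. The 14 had a median difference of -0.54 and a summed linear signal, in units of the array's 75th percentile, of 198 against 154. Lower by 2-fold or more were 2 (14.3%, against 6.71% of all genes), *Procr* (2.32-fold) and *Mecom* (2.71-fold at its brightest probe). The 3 probes of *Mecom* ranged from -1.44 to 0.61. Markers of other cell types, not all of them limited to mature cells, were also measured, and many had higher levels on the p38KO-labelled array. The median difference was 1.18 for neutrophil markers. Of the 11 measured, 7 were higher by 2-fold or more and 2 lower by as much, against 4.11% and 6.71% of all genes. Their summed signal was 214 against 302, most of it from *Csf3r*, which read 7.69 and 8.13 (1.35-fold). *Elane*, which encodes neutrophil elastase, was 1 of the 2 genes lower by 2-fold or more (2.67-fold). The median was 0.62 for B lineage markers, all 10 measured being higher, with sums of 14.8 and 34.8. Of the 10, 2 were higher by 2-fold or more, against 4.11% of all genes. Most of the rise in the sum came from 1 of these, *Jchain*, which was 13.5-fold higher, from 0.18 to 3.93. The median was 0.32 for monocyte and macrophage markers, whose sums were 213 and 279, most of each from *Itgam*. *Itgam* was 1.34-fold higher at its brightest probe, whereas its 3 probes ranged from -0.42 to 0.88. Of the 12 monocyte and macrophage markers measured, 8 were above 0 and 4 below, with 1 past 2-fold each way. *F13a1* was at least 5.66-fold higher, whereas *Cx3cr1* was at least 3.19-fold lower and *Lyz2* 1.94-fold lower. *Ccr2* was well above background on neither array, and *Ly6g* among the neutrophil markers was so on the *p38α*+/+ array only. The median was 0.59 for T and NK cell, 0.50 for erythroid, 0.39 for megakaryocyte, 0.23 for dendritic cell and -0.10 for endothelial and stromal markers. Among T and NK cell markers, 6 genes were above 0 and 2 below. Of the latter, *Zap70* was 21.6-fold lower at its brightest probe, whereas its other probe differed by -0.03. Neutrophils and monocytes use the same receptors and kinases as the genes described here. In RNA of a sorted population, fewer cells of a type and less RNA per cell cannot be told apart.

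The sequences below are those on which the differences turn. Each is a 60-base array probe, or its first 30 bases, printed in the sense of the transcript with coordinates of the whole probe in mm9. *Tlr2* and *Irak4* are shown whole, since *Tlr2* was the 1 gene past 2-fold at its brightest probe and the *Irak4* probe covers 728 bases of the genome, so its letters join separate genomic blocks. For *Il1b* and *Myd88*, each spotted 10 times per array, the first 30 bases are shown. The 3 probes of *Il1rap* and a *Traf6* probe are shown because they departed from another probe of the same gene. The position in the transcript is the first base of the probe in the transcript the array design names.
Tlr2 A_51_P452629, chr3:83640344-83640403, minus strand, position 2645 of NM_011905: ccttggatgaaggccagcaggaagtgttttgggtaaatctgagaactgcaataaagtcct
Irak4 A_52_P166266, chr15:94384447-94385174, plus strand, position 662 of NM_029926: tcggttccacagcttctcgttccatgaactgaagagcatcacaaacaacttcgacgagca
Il1b A_51_P212782, chr2:129190347-129190406, minus strand, position 1236 of NM_008361: aggttcctataatatggatgagaattttta
Myd88 A_52_P282762, chr9:119245322-119245381, minus strand, position 1629 of NM_010851: ggtttgcatcttcttattcctttcacgttc
Il1rap A_52_P467232, chr16:26701498-26701557, plus strand, position 1409 of NM_134103: gatgttgtcaacgcctttgtttctaaatgt
Il1rap A_55_P2041422, chr16:26716515-26716574, plus strand, position 3256 of NM_008364: catacatctttcagtagtcattggcaaaat
Il1rap A_55_P2041432, chr16:26725291-26725350, plus strand, position 4378 of ENSMUST00000096129: ccattttctttaaccagctcttccttgatc
Traf6 A_55_P1998380, chr2:101519206-101519265, plus strand, position 585 of AK009110: ttcccctgtccggggaaggaaatcgcctgc

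Of the 18 probes, 14 cleared background (well above it by the scanner's flag) on both arrays, 1 on the *p38α*+/+ array alone, 1 on the p38KO-labelled array alone and 2 on neither. At the brightest probe of each gene, 9 of the 10 genes could be compared. *Tlr2* was 2-fold or more lower on the p38KO-labelled array, against 6.71% of all genes measured, and 0 genes were 2-fold or more higher, against 4.11%. The median difference of the 9 genes was 0.02, with 4 genes below 0 and 5 above, against -0.03 for all genes. Large differences were more frequent among dim genes. With all genes split into 4 bins of equal size by mean level, 13.8% of the dimmest bin were 2-fold or more lower and 9.1% as much higher. The shares were 9.1% and 5.1% in the next bin, 3.21% and 1.58% in the third and 0.698% and 0.651% in the brightest. *Tlr2*, *Il1b* and *Il1rap* belonged to the dimmest bin, *Myd88*, *Irak4* and *Traf6* to the next, *Il1r1* and *Tlr4* to the third and *Irak1* to the brightest.

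**Figure D1:**
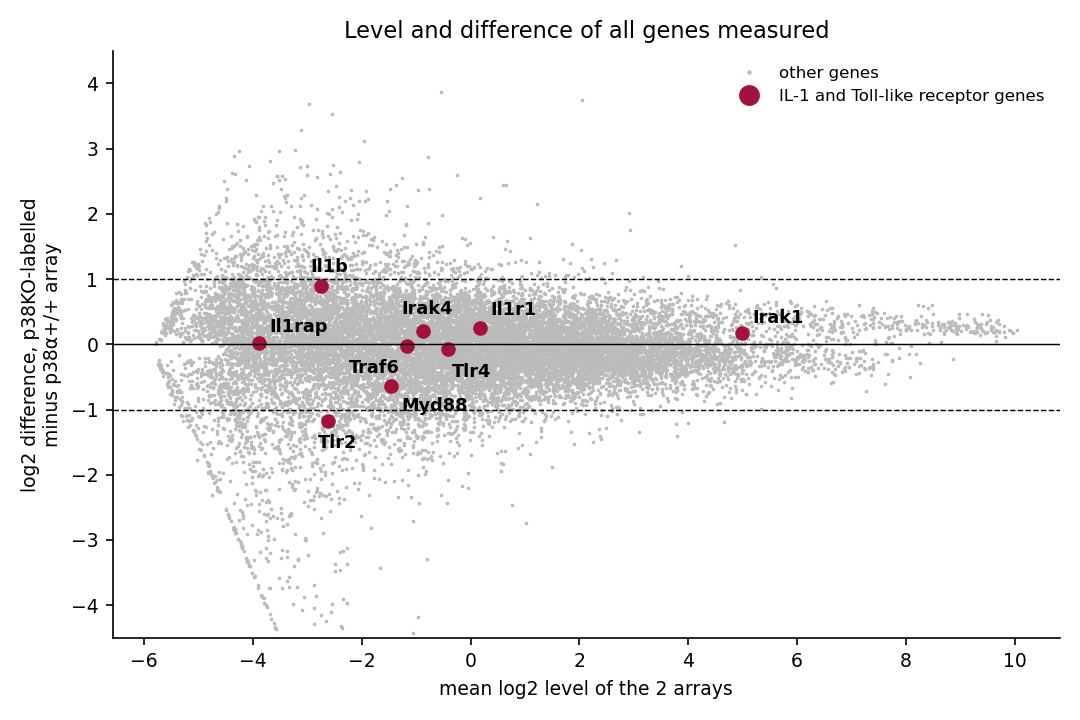
Log2 difference between the arrays (vertical axis) against the mean log2 level of both arrays (horizontal axis) for 17166 genes at their brightest probe, with 16 genes outside the vertical axis left out. Red points are the 9 genes of the IL-1 and Toll-like receptor pathway that could be compared, dashed lines mark 2-fold, and slanted edges at the left are genes with a lower bound. *Tlr2* lies below the lower dashed line, at -1.18, in the range of levels where many genes scatter that far, and *Irak1* lies at 0.17 among bright genes that scatter little.

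The agonist of the pathway, *Il1b*, was dim on both arrays and higher on the p38KO-labelled array. *Il1b* encodes the precursor that caspase-1 cuts to active IL-1β. Its 10 spots ranged from -4.04 to -2.78 on the *p38α*+/+ array, with a median of -3.11, and from -2.48 to -2.16 on the other, with a median of -2.31. Every spot of the p38KO-labelled array was thus above every spot of the *p38α*+/+ array, and the *p38α*+/+ spots were spread more widely. The mean difference was 0.89 ± 0.12 (SE over 10 spots per array, of technical origin), a 1.85-fold difference, and 5.47% of all genes had one as high. For such repeated spots a lack of overlap was frequent: among 246 probes with 9 or 10 spots kept on each array and well above background on both, 17.1% had all spots higher on the p38KO-labelled array and 29.7% all lower. The raw spot brightness of *Il1b* had a median of 38.2 on the *p38α*+/+ array and 43.3 on the other, over a local background of 17 on both. After the scanner's background subtraction its median signal was 16.6 and 23.2.

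The receptor for IL-1 was represented by a chain with 1 probe, slightly higher on the p38KO-labelled array, and by a chain whose probes disagreed. *Il1r1*, the ligand-binding chain, had 1 spot per array and read 0.04 and 0.30, a difference of 0.26 (1.19-fold). The SD of a difference between single spots at that level was 0.12, taken from the 50 repeatedly spotted probes nearest in level. *Il1rap*, the accessory chain without which the receptor does not signal, had 3 probes, all dim. A_55_P2041432, the brightest, read -3.90 and -3.88, a difference of 0.02. A_52_P467232 was well above background only on the p38KO-labelled array, at -3.73 against a measured -5.43, and was at least 1.90-fold higher there. A_55_P2041422 was well above background only on the *p38α*+/+ array, at -3.82 against -6.86 on the other, and was at least 1.95-fold lower on the p38KO-labelled array. These bounds are set against the lowest level well above background of the dim array, or the probe's own level where that was higher. The 3 probes start 15017, 23793 and 8776 bases apart on the genome and are named for different transcripts of the gene, so they need not read the same RNA. The SD of a single-spot difference at this level was 0.39.

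*Il1rn*, which encodes the receptor antagonist, was well above background on neither array, at -4.30 on the *p38α*+/+ array and -4.70 on the other, and no difference is given. Other members of the family read as follows. Of 8 other IL-1 family ligands, 3 were measured and all 3 were lower by less than 2-fold. *Il18*, which signals through MyD88 as well, read -1.63 and -2.07. *Il1a*, *Il33*, the IL-36 genes *Il1f6* and *Il1f8* and the IL-36 receptor antagonist *Il1f5* were well above background on neither array, and neither were the decoy receptor *Il1r2* and the IL-36 receptor *Il1rl2*. Of 7 other IL-1 family receptors and inhibitors measured, *Il18bp*, which binds and neutralizes IL-18, was 2.69-fold lower, from -1.36 to -2.78. It was the 1 past 2-fold, against 6.71% of all genes lower by as much. *Sigirr*, an inhibitory receptor of the family, read 0.34 and -0.08.

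**Figure D2:**
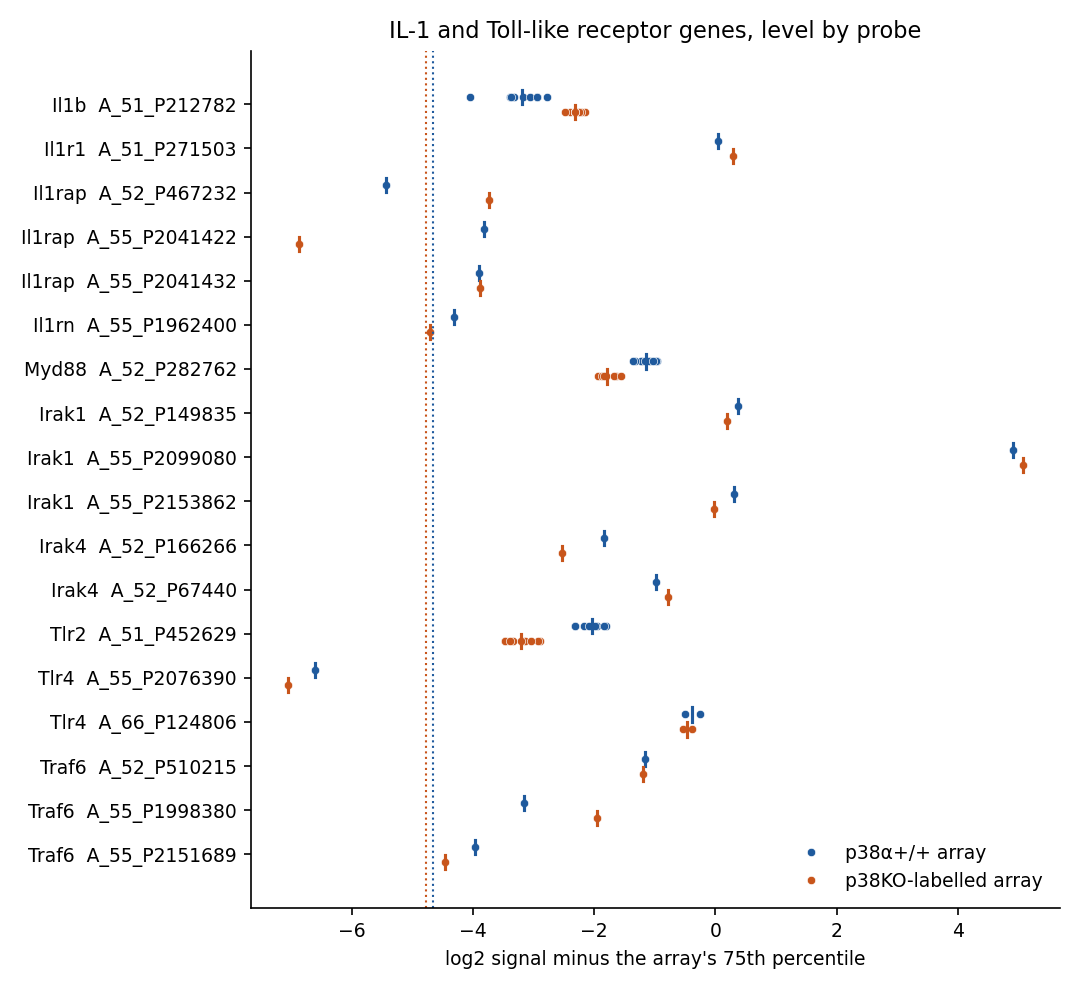
Log2 level of each probe of the 10 genes (horizontal axis, relative to the array's 75th percentile) on the *p38α*+/+ array (blue) and on the p38KO-labelled array (orange). Each point is 1 spot, short bars are means and dotted lines are the lowest level well above background on each array, -4.65 and -4.78. The spots of *Il1b*, *Myd88* and *Tlr2* do not overlap between the arrays, whereas the 2 spots of *Tlr4* do. Of 246 probes with 9 or 10 spots kept on each array, 29.7% had all spots lower on the p38KO-labelled array and 17.1% all higher.

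*Tlr2* showed the largest difference of the 10 genes at their brightest probes. A dimmer *Traf6* probe differed slightly more (1.19), and with normexp and an offset of 50 *Il1b* (0.35) and *Myd88* (-0.23) differed more than *Tlr2* (-0.20). TLR2 recognizes bacterial lipoproteins as a dimer with TLR1 or TLR6. Of 10 spots per array, 1 was left out as an outlier. Its 9 spots kept on the *p38α*+/+ array ranged from -2.32 to -1.81, with a median of -1.99, and its 9 spots on the p38KO-labelled array from -3.47 to -2.89, with a median of -3.21. The spots of the p38KO-labelled array were all below those of the *p38α*+/+ array, as held for 29.7% of the repeated probes above. The mean difference was -1.18 ± 0.10 (SE over 9 spots per array), a 2.26-fold lower level, and 4.77% of all genes had one as low. Median raw brightness was 56.4 and 32.1, over a local background of 16 on both arrays. The 2-fold line was not kept under other background corrections: the difference was -0.97 with normexp and no offset, and -0.20 with normexp and an offset of 50, which is larger than the processed signal itself, a median of 36.1 on the *p38α*+/+ array and 12.4 on the other. Partners of TLR2 gave no value: *Tlr1* and *Tlr6* were well above background on neither array.

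The promoter of *Tlr2* is printed because *Tlr2* was the 1 gene past 2-fold at its brightest probe and its promoter matched the NF-κB motif. RefSeq's GRCm38.p6 entry for the 250 bases before the *Tlr2* start, chr3:83841609-83841858 on the minus strand, reads as follows, with the matches in capitals.
Tlr2 promoter: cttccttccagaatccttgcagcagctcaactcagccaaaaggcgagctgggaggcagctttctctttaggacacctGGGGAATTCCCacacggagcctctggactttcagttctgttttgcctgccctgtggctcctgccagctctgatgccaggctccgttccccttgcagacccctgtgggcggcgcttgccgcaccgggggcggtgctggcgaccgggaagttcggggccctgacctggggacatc
The capitals hold 2 overlapping matches to the NF-κB motif, GGGGAATTCC from 173 to 164 bases before the start and GGGAATTCCC from 172 to 163, the latter on both strands. Over 32851 promoter entries searched on both strands, 3.9% held this motif, 6.75% the AP-1 motif TGANTCA and 23.3% the PU.1 motif GAGGAA. Of the other genes, *Il1r1* held an NF-κB match at 1 of 2 start sites, on the strand opposite to the gene only. It lies 232 to 223 bases before that start and reads GGAATGCCCC in the sense of the gene. *Il1rn* held an AP-1 match at 1 of 3 (TGAGTCA, 141 to 135 bases before it), and *Traf6* held 2 PU.1 matches, at 161 to 156 and 106 to 101 bases before its start. *Il1b*, *Il1rap*, *Myd88*, *Irak1* and *Irak4* held none of these letters in the window, and the promoter of *Tlr4* was not analysed here. A match describes the sequence and says nothing of binding.

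*Tlr4*, the receptor for lipopolysaccharide, did not follow *Tlr2*. At A_66_P124806 its 2 spots read -0.51 and -0.26 on the *p38α*+/+ array and -0.54 and -0.38 on the p38KO-labelled array. The spots overlapped, and the mean difference was -0.08 ± 0.15 (SE over 2 spots per array). The other probe, A_55_P2076390, starts 86607 bases away, is named for another transcript and was well above background on neither array. A gene that acts with TLR4 differed more: *Ly96*, which encodes its lipopolysaccharide-binding partner MD-2, was 2.39-fold lower, from 0.54 to -0.72. *Cd14*, the co-receptor that hands lipopolysaccharide to MD-2, read -3.34 and -2.42, a difference of 0.92. Among the 8 accessory proteins measured, *Ly96* was the 1 gene past 2-fold, against 6.71% of all genes lower by as much. In the third bin of mean level, to which *Ly96* belonged, the share was 3.21%. Of 10 other Toll-like receptors, 6 were measured, 4 of them above 0, and 0 differed by 2-fold. *Tlr9*, a receptor for DNA in endosomes, read 3.29 and 3.72. *Tlr3* and *Tlr11* were well above background on neither array.

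**Figure D3:**
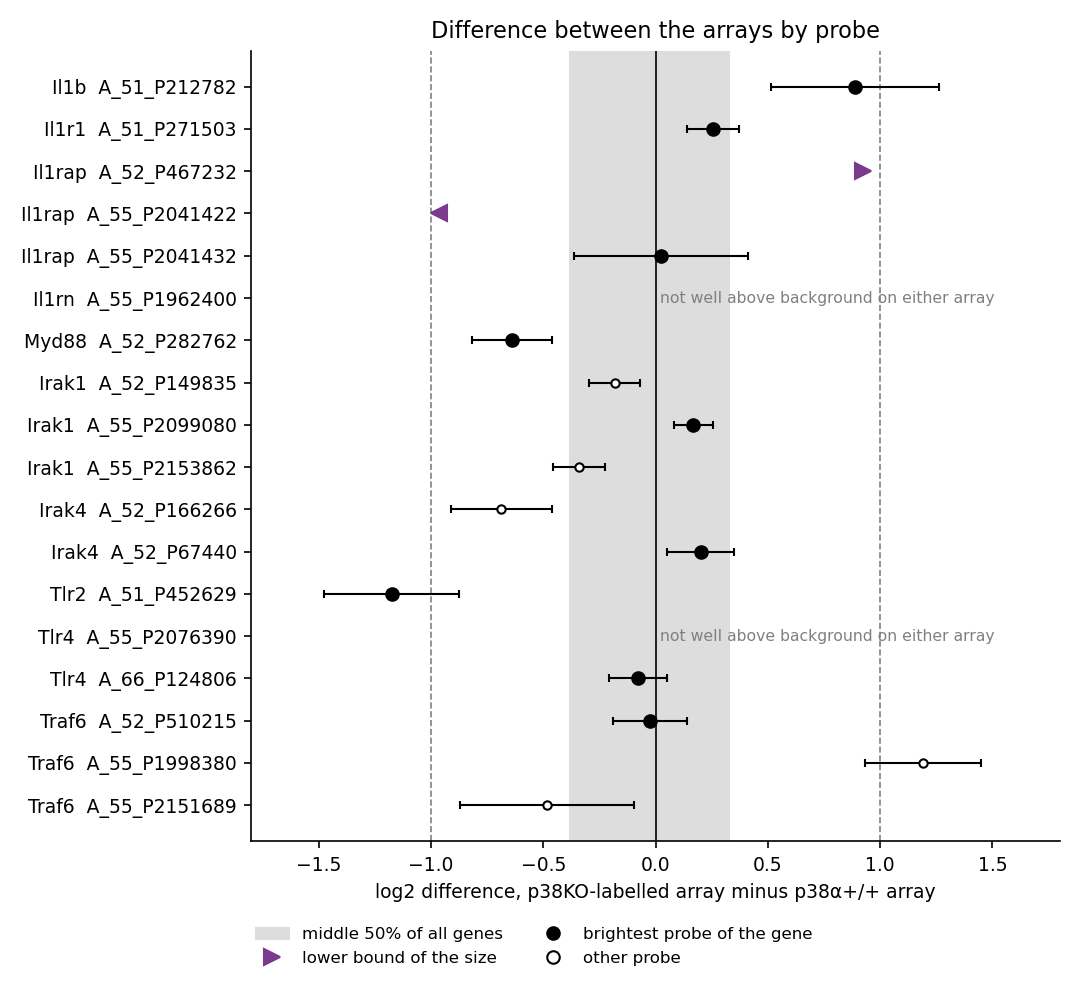
Log2 difference of each probe of the 10 genes (horizontal axis, p38KO-labelled array minus *p38α*+/+ array). Bars are the SD of a difference between single spots, the probe's own where it had over 2 spots and otherwise that of repeated probes of like level. Triangles are lower bounds, grey is the middle 50% of all genes (-0.38 to 0.33) and dashed lines mark 2-fold. *Tlr2* lies at -1.18 and 1 probe of *Traf6* at 1.19, and the filled points of *Irak1*, *Irak4*, *Il1r1*, *Il1rap*, *Tlr4* and *Traf6* lie inside the grey band.

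*Myd88*, the adaptor shared by the IL-1 receptor and most Toll-like receptors, was lower on the p38KO-labelled array. Its 10 spots ranged from -1.35 to -0.97 on the *p38α*+/+ array, with a median of -1.13, and from -1.94 to -1.56 on the other, with a median of -1.82. They did not overlap, and 29.7% of the repeated probes above likewise had all spots lower on the p38KO-labelled array. The mean difference was -0.64 ± 0.06 (SE over 10 spots per array), a 1.56-fold lower level, and 13.7% of all genes had one as low. The adaptor that couples MyD88 to TLR2 and TLR4, *Tirap*, was 2.19-fold lower, from -0.21 to -1.34. *Ticam1*, the adaptor of the route that does not use MyD88, read -2.49 and -2.50. The difference of *Myd88* was -0.59 with normexp and no offset and -0.23 with an offset of 50.

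The kinases showed differences under 2-fold whose direction depended on the probe. *Irak4*, the first kinase to bind MyD88, read -0.98 and -0.78 at A_52_P67440, its brightest probe, a difference of 0.20. It read -1.84 and -2.52 at A_52_P166266, the probe that joins separate genomic blocks, a difference of -0.69 (1.61-fold lower). The SD of a single-spot difference was 0.15 and 0.23 at these levels, and the probes start 13296 bases apart. Both are named for the same transcript. *Irak1*, which IRAK4 phosphorylates, read 4.90 and 5.07 at A_55_P2099080, a difference of 0.17. It read 0.37 and 0.19 at A_52_P149835, a difference of -0.18, and 0.31 and -0.03 at A_55_P2153862, a difference of -0.34. Averaged over a gene's probes, both genes changed sign, to -0.24 for *Irak4* and -0.12 for *Irak1*.

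*Traf6*, the ubiquitin ligase at which the IL-1 and Toll-like receptor routes meet, had 3 probes that gave 3 answers. A_52_P510215, the brightest, read -1.16 and -1.19, a difference of -0.03. A_55_P1998380 read -3.15 and -1.96, a difference of 1.19 (2.28-fold higher), and was the 1 of the 18 probes higher by 2-fold or more, against 6.32% of all 40416 probes measured. A_55_P2151689 read -3.97 and -4.45, a difference of -0.48. The SD of a single-spot difference was 0.16, 0.26 and 0.39 at these levels. A_55_P1998380, named for the complementary DNA AK009110, starts 7102 bases from A_55_P2151689 and 21454 bases from the brightest probe. With the mean of the 3 probes, *Traf6* read 0.23 higher. At the level of probes, *Tlr2* was the 1 of the 18 probes lower by 2-fold or more, against 7.52% of all probes.

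**Figure D4:**
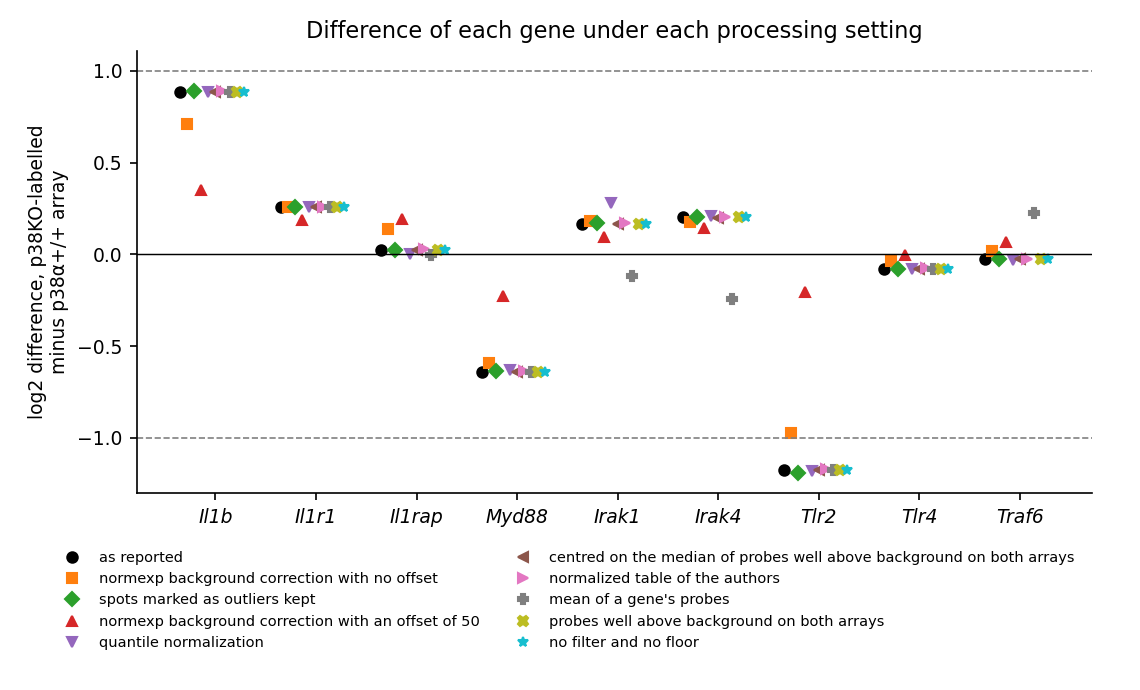
Log2 difference of each of the 9 genes that could be compared (vertical axis) under each processing setting (symbols). Dashed lines mark 2-fold. *Tlr2* moves from -1.18 to -0.97 and -0.20 under normexp background correction without and with an offset of 50, *Il1b* moves from 0.89 to 0.71 and 0.35, and *Irak1* and *Irak4* cross 0 when the probes of a gene were averaged.

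Beyond these 10 genes, 95 further genes of the pathway had a probe and 80 were measured. Their median difference was -0.06, against -0.03 for all genes; 5 (6.25%) were lower by 2-fold or more and 3 (3.75%) higher by as much, against 6.71% and 4.11%. The share past 2-fold was thus near that of all genes. Of 18 other adaptors, kinases and ubiquitin enzymes, all were measured and *Tirap* was the 1 past 2-fold. *Ikbkg*, the regulatory subunit of the IκB kinase, read -0.98 and -1.94. Of 11 pathway inhibitors measured, *Otud7b*, a deubiquitinase, was well above background on the *p38α*+/+ array only, at -2.11 against a measured -4.99, and was at least 6.36-fold lower on the other. *Nfkbia*, the inhibitor of NF-κB that NF-κB itself induces, read 2.14 and 1.43, whereas *Tnfaip3*, which removes ubiquitin from TRAF6, read 0.28 and 0.24 and *Irak3*, the kinase-dead IRAK, 1.61 and 1.60.

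Among 10 genes of the inflammasomes and of IL-1 processing, *Nlrc4*, the sensor adaptor for flagellin, was 2.26-fold lower, from -2.70 to -3.88. *Nlrp3* read -2.19 and -1.28, and *Casp1*, the protease that cuts the IL-1β precursor, read 1.86 and 1.61. Of 17 genes induced by IL-1 or Toll-like receptor ligands that were measured, 3 were higher by 2-fold or more on the p38KO-labelled array and 0 lower by as much, against 4.11% and 6.71% of all genes (9.1% and 13.8% in the dimmest bin). *Tnf* was well above background on that array only, at -1.84 against a measured -5.54, and was at least 7.03-fold higher. *Lcn2*, which encodes a siderophore-binding protein stored in neutrophil granules, was 3.08-fold higher, from 0.28 to 1.91. Its mean level lay in the third bin or the brightest, where 1.58% and 0.651% of genes were 2-fold or more higher. *Il6* was 2.03-fold higher, from -4.57 to -3.55, where -4.65 was the lowest level that cleared background on the *p38α*+/+ array. The median difference of the list was 0.07. *Lcn2*, *Il1b* and *Cd14* are also expressed by neutrophils. Of the neutrophil markers, *Ltf* and *S100a9* were 4.69-fold and 4.04-fold higher on the same array, the highest of that list. *Elane* was 2.67-fold lower and *Ly6g* at least 2.80-fold lower. *Tlr2* and *Myd88*, which neutrophils also use, were lower on the p38KO-labelled array, with differences of -1.18 and -0.64. Antibodies to Gr-1, Mac-1, B220, CD4, CD8 and TER-119 in the lineage gate of the sort are meant to remove mature cells such as neutrophils. Their part in these differences, and that of the B lineage and monocyte markers above, was not tested.

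**Figure D5:**
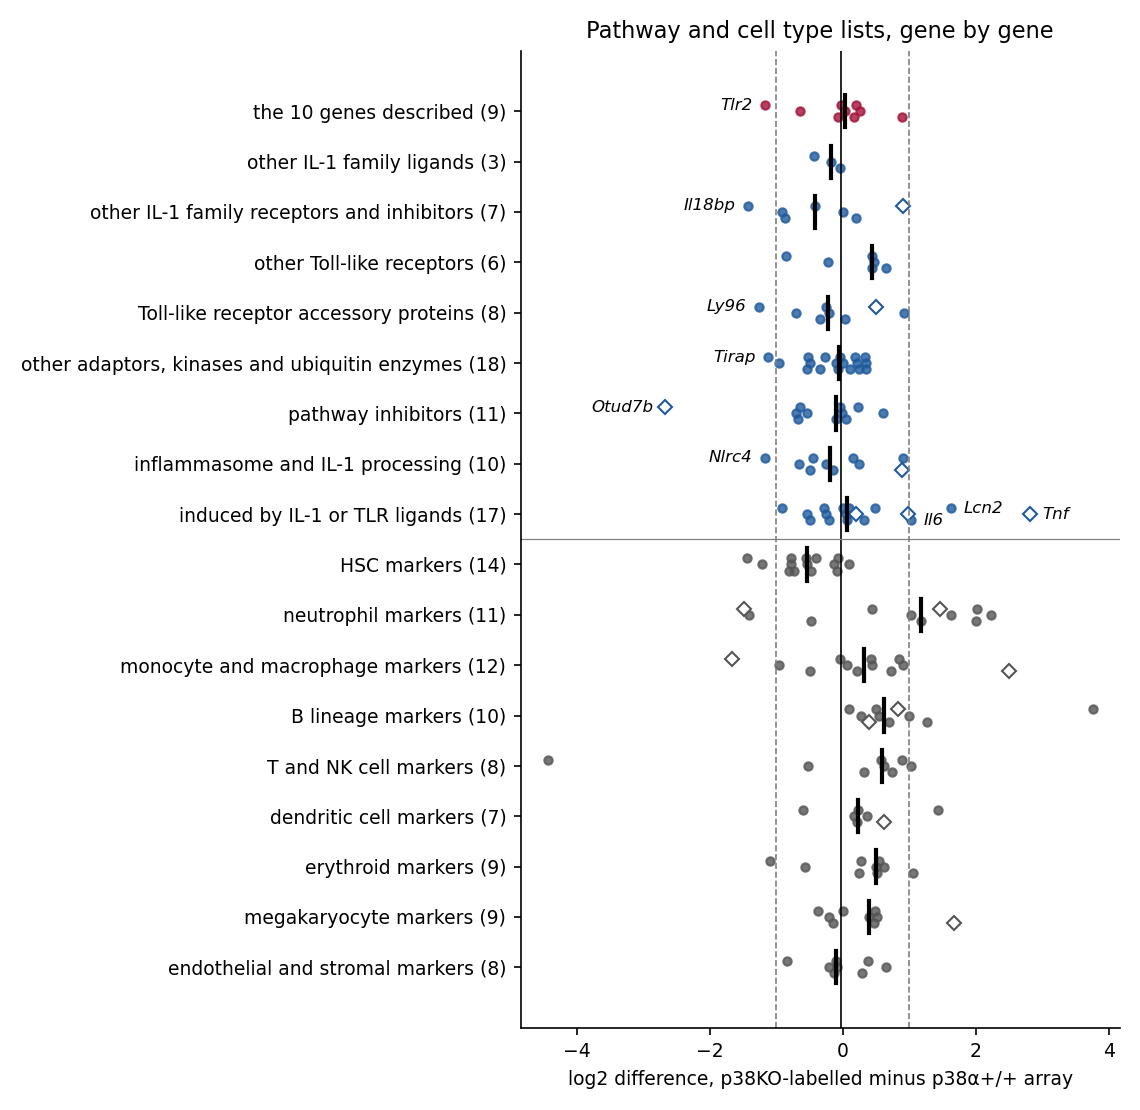
Log2 difference of each measured gene (horizontal axis, p38KO-labelled array minus *p38α*+/+ array) in the 10 genes described (red), 8 lists of the wider pathway (blue) and 9 cell type lists (grey), with the number measured in parentheses. Open diamonds are lower bounds, black bars medians, the solid line the median of all genes (-0.03) and dashed lines 2-fold. Pathway genes past 2-fold are named, HSC markers have a median of -0.54 and neutrophil markers one of 1.18.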

How the data were processed

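RNA of LT-HSCs was measured on 1 Cy3 array per genotype (*p38α*+/+ and *p38α*Δ/Δ), on the same slide and scan. The authors deposited scanner intensity per spot, made with Agilent Feature Extraction 11.5.1.1 (submitters' processing notes), background-subtracted but not normalized between arrays, with probe coordinates in mm9. The authors also deposited a normalized log2 table of 35795 probes, equal to log2 signal minus 7.16 (*p38α*+/+) or 6.84 per array, with column medians of -0.793 and -0.789.

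Spots marked as outliers and control spots were left out. From the mean log2 signal of each probe, the 75th percentile over the array's non-control probes was subtracted (7.16 and 6.85). Of 55662 probes kept, 31778 (57.1%) were named through symbols, synonyms or accessions of a GRCm38.p6 table. Each gene was read at the probe with the highest mean level, if either array had it well above background. Where the other array did not, its level was floored at the lowest one that was, and the fold is a lower bound. A call was a difference of 2-fold or more. The number of arrays limits the precision, and spot SDs and SEs are technical.

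All 10 genes were reported at every probe. From other lists, at most 3 falls and 3 rises past 2-fold were named, with undetected ligands and receptors. Other genes, with the markers named, were chosen after their values were seen. The genes and lists were chosen with earlier results of these data known. Alternatives were normexp (limma 3.58.1), quantile normalization, centring on the median, the normalized table, averaging the probes of a gene, and stricter or no filters. Normexp without offset and keeping outlier spots were added after seeing the data. Calculations were tested on simulated data, in Python 3.11.15 and R 4.3.3.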

Additional observations from a re-analysis of the deposited data

How the results depend on the processing

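Across 9 alternatives, *Il1b* and *Il1r1* stayed above 0 (0.35 to 0.89 and 0.19 to 0.26), and *Myd88*, *Tlr2* and *Tlr4* below 0 (-0.64 to -0.23, -1.19 to -0.20 and -0.08 to -0.00). The number of the 10 genes 2-fold or more lower went from 1 to 0 with normexp, both with an offset of 50 and, in an alternative added after seeing the data, with no offset. The share of all genes 2-fold or more lower was 0.744% and 4.9% in these settings, against 6.71%. Adding 50 to every signal shrinks differences of dim probes by its construction. The number 2-fold or more higher was 0 under all 9. The median difference of the 10 genes lay between -0.08, with a gene's probes averaged, and 0.14, and that of the wider pathway between -0.12 and 0.05. *Il1rap*, *Irak1*, *Irak4* and *Traf6*, each with several probes, changed sign under at least 1 alternative, with ranges of -0.01 to 0.19, -0.12 to 0.28, -0.24 to 0.21 and -0.03 to 0.23. Without a filter or floor, the probes of *Il1rap* measured on 1 array read 1.71 and -3.05. All 8 wider pathway genes past 2-fold kept their direction where they had a value, but *Il6* (0.59) and *Nlrc4* (-0.84) were under 2-fold with normexp and no offset, *Il6* (0.99) was so with quantile normalization, and with an offset of 50 only *Lcn2* (1.30) stayed past it. No paired analysis was possible because each genotype had 1 array, and for the same reason no replicate could be left out. Signal over background limits *Il1b*, *Il1rap*, *Il1rn* and *Tlr2*.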
